A study of Homo sapiens with 5 samples.

Results

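The genes described here are those of the NRF2 pathway and of thiol-based antioxidant defence, chosen by name: NFE2L2, KEAP1, NQO1, HMOX1, TXN, TXNRD1, PRDX1, GCLC, GCLM and SRXN1. Of these 10 genes, 9 had a row in the deposited table of 10626 genes, all 9 passed the filter on low counts, and SRXN1, the sulfiredoxin gene, was not analysed here. Total RNA was sequenced from METAP1 knockout HAP1 cells (2 libraries) and from wild type, parental HAP1 cells (3 libraries). HAP1 is a near-haploid adherent human line derived from a chronic myeloid leukaemia line. METAP1 encodes methionine aminopeptidase 1, which takes the first methionine off new proteins. The knockout line came from CRISPR/Cas9 editing that left an insertion of 179 bp in exon 4, and both genotypes grew in the same serum-supplemented medium. The labels describe 1 edited line, so genotype and clone cannot be told apart. They call the samples biological replicates with no word on separate cultures, and p-values measure the spread between these samples.

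NRF2, the protein of NFE2L2, is a transcription factor that is kept low by KEAP1, an adaptor that brings it to a CUL3 ubiquitin ligase for degradation. When oxidants or electrophiles modify cysteines of KEAP1, NRF2 builds up, pairs with a small MAF protein and binds antioxidant response elements near genes of glutathione and thioredoxin metabolism. The pathway is controlled largely at the protein level, which RNA counts do not measure.

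The labels' text names METAP1D beside METAP1 as the edited gene. METAP1 itself had 611 and 748 normalized counts in knockout libraries 2 and 3, against 1868, 1932 and 1944 in wild type replicates 1 to 3 (log2 fold change -1.49, SE 0.115). Normalized counts are reads scaled to the mean effective size of the 5 libraries. The reads were counted over the whole gene and do not show the insertion itself. The table held between 12570051 and 13061232 reads per knockout library and between 13111303 and 16519292 per wild type library. Wild type replicate 1 lay nearest to the knockout libraries, and the rank correlation of the fold change with gene length was 0.0950 against replicate 1, 0.359 against replicate 2 and 0.258 against replicate 3. The fusion partner genes of the parent leukaemia were both measured, with BCR at 423 and 408 normalized counts in knockout libraries, against 339, 342 and 329.9 in wild type libraries, which was not called (log2 fold change 0.30, SE 0.116). ABL1 was called higher, with 539 and 449 normalized counts in knockout libraries, against 330.0, 242 and 268 in wild type libraries (log2 fold change 0.82, SE 0.162, edgeR adjusted p = 0.00732), a call that was lost without knockout library 2. Of 14 haematopoietic markers, 2 were in the table (KIT and GATA2) and the other 12 were not analysed here.

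Antioxidant response elements share the core TGACNNNGC, where N is any base, and this core was searched on both strands (GCNNNGTCA on the other) in RefSeq promoter windows of build GRCh38.p14, which run from 250 bases before to 50 bases after a transcript start. Windows matched 8 of the 10 gene symbols. The core lay in windows of 3 of these 8 genes, KEAP1, TXNRD1 and GCLM, whereas it lay in 13.3% of all 35116 windows and in windows of 16.1% of all 27305 genes and of 19.6% of the 8248 genes of the table that had a window. These 6 matches are shown first, because they carry the sequence that NRF2 is known to read; each stretch runs 5′ to 3′ on the gene's strand (reverse for KEAP1 and GCLM, forward for TXNRD1) with 10 bases on either side, and capitals mark the match. A match is a run of letters and not a measured binding site, and no other motif was searched.
KEAP1, first match, 54 bases before the start (chr19:10502817-10502825): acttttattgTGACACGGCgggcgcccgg
KEAP1, second match, 31 bases before the start (chr19:10502794-10502802): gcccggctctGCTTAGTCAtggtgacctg
TXNRD1, distal start, 99 bases before it (chr12:104215680-104215688): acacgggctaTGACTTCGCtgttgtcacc
TXNRD1, distal start, 8 bases before it (chr12:104215771-104215779): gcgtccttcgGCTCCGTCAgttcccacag
TXNRD1, proximal start, 102 bases before it (chr12:104286930-104286938): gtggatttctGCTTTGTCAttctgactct
GCLM, 34 bases before the start (chr1:93909456-93909464): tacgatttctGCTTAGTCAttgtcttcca
The GCLM match and the second KEAP1 match were the same run, GCTTAGTCA, at 34 and 31 bases before their starts. The windows of NFE2L2, NQO1, TXN, GCLC and SRXN1 held no match within these bases. Of the 2 windows of KEAP1, that of the downstream start held both matches and that of the upstream start held none.

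The promoters of GCLC and GCLM are printed in full up to the start, because their genes encode the subunits of 1 enzyme and differed in direction in the counts below. Both are on the reverse strand and are given 5′ to 3′ over the 250 bases before the start, with the match in capitals in the second.
GCLC (chr6:53545102-53545351): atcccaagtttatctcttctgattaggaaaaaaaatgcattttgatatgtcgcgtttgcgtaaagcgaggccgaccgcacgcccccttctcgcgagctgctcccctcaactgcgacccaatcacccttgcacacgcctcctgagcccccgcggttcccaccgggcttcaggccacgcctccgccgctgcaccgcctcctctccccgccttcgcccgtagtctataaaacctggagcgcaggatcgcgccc
GCLM (chr1:93909431-93909680): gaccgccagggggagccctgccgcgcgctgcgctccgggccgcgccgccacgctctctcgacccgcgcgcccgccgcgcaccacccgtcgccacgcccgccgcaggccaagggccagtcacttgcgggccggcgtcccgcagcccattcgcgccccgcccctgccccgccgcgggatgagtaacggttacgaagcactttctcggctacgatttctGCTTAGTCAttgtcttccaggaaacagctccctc

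Of the 9 measured genes, 2 rose in the knockout (HMOX1 and GCLM), 4 fell (KEAP1, NQO1, GCLC and TXN) and 3 did not pass the test (NFE2L2, TXNRD1 and PRDX1). Known NRF2 target genes were thus found on both sides, and the median log2 fold change of the 9 was 0.02, beside 0.01 over all 10620 tested genes. Their median absolute log2 fold change was 0.52, beside 0.26 over all tested genes. Calls rest on an adjusted p under 0.05 (edgeR's quasi-likelihood test, Benjamini-Hochberg over all tested genes). By this rule 6 of 9 were called, where 29.7% of all tested genes were called (14.9% higher and 14.8% lower). Normalized counts of the 2 genotypes did not overlap in 7 of 9, where 59.3% of all tested genes did not overlap. These 6 genes were called in the same direction under median-of-ratios size factors (29.5% of all genes called), library sizes without TMM (29.8%), no low-count filter (29.6%), a filter at a mean of 50 counts (29.9%), DESeq2 (31.6%), limma-voom (29.8%) and removal of the trend with gene length (32.7%). Leaving out knockout library 2 left 1 of 9 called (11.1% of all genes called), leaving out knockout library 3 left 2 (12.4%), and leaving out wild type replicate 3 left 2 (15.7%). With wild type replicate 1 omitted (43.2% of all genes called), 6 were called, with HMOX1 lost and NFE2L2 gained. With replicate 2 omitted (27.0%), the same 6 genes were called as with all libraries. The genes were picked by name with earlier results of these data known, so these counts are a description of them.

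**Figure D1:**
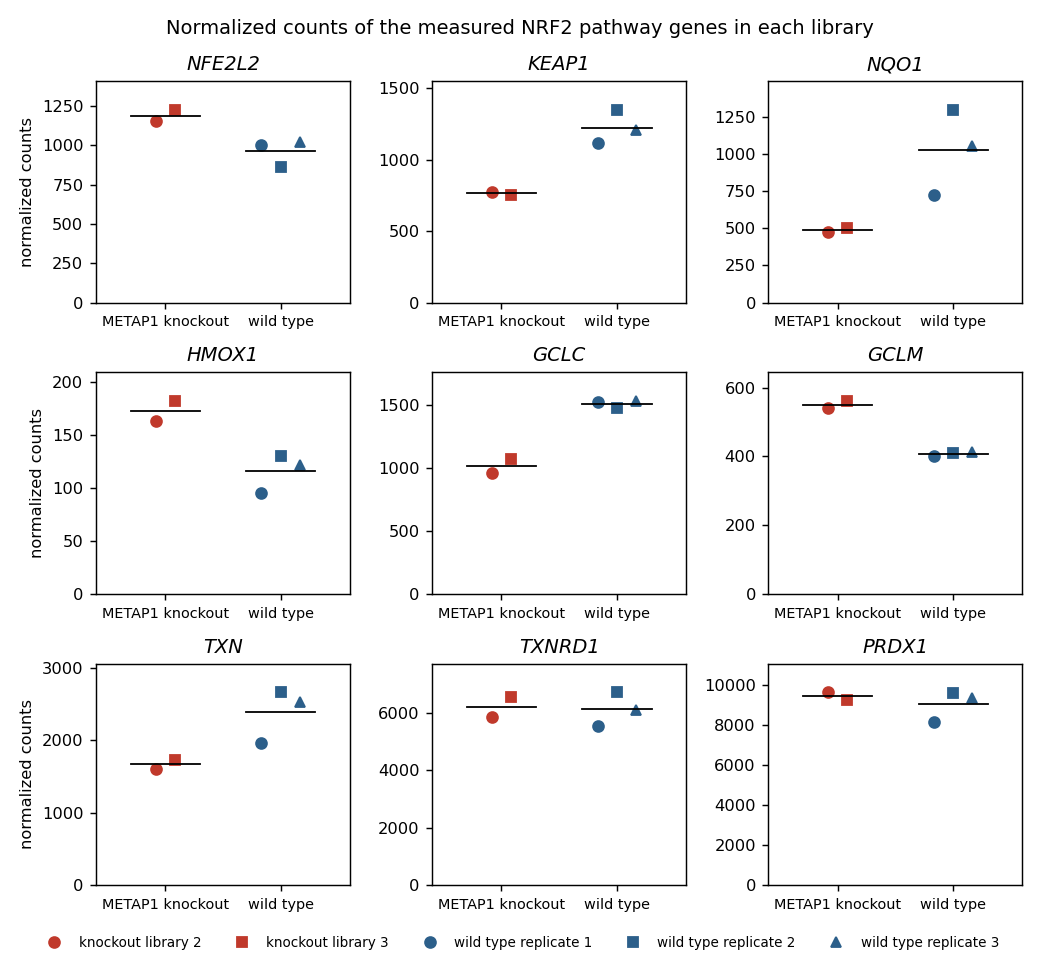
Normalized counts (vertical axis, from 0) of each measured gene in the METAP1 knockout libraries (red, left) and the wild type libraries (blue, right), with the group mean as a line. KEAP1, NQO1, GCLC and TXN lie lower and HMOX1, GCLM and NFE2L2 higher in every knockout library, while TXNRD1 and PRDX1 overlap.

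Of the regulator pair, KEAP1 was called lower and NFE2L2 was not called. KEAP1 (ENSG00000079999; chromosome 19, 10486120 to 10503741, reverse strand, GRCh38), the adaptor that marks NRF2 for degradation, had 773 and 754 normalized counts in knockout libraries 2 and 3, against 1119, 1348 and 1207 in wild type replicates 1 to 3. Both knockout values lay below every wild type value, and the 2 knockout libraries differed by a factor of 1.03. KEAP1 fell to 0.623 times the wild type level (log2 fold change -0.68, SE 0.114, edgeR adjusted p = 0.00341). This call held whichever of the 5 libraries was left out, with log2 fold changes between -0.76 and -0.61. NFE2L2 (ENSG00000116044; chromosome 2, 177227595 to 177392697, reverse strand), the gene of NRF2, had 1153 and 1225 normalized counts in knockout libraries, against 999.7, 861 and 1024 in wild type libraries. The groups did not overlap, but the log2 fold change of 0.31 (SE 0.111, 95% interval 0.05 to 0.56) had an edgeR adjusted p of 0.0688 and was not called. NFE2L2 was called higher without wild type replicate 1 (0.32, edgeR adjusted p = 0.0481) and under a block by column number (0.34, edgeR adjusted p = 0.0367). The block fit called 41.0% of all genes. No knockout library shares the number of wild type replicate 1, so for every gene this block in effect sets that replicate aside. Exons of NFE2L2 overlap those of AGPS on the opposite strand, and whether reads were counted by strand is not given here.

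NQO1 and HMOX1, both common readouts of NRF2 activity, moved in opposite directions. NQO1 (ENSG00000181019; chromosome 16, 69706996 to 69726951, reverse strand) encodes a quinone reductase that uses NADH or NADPH. It had 474 and 503 normalized counts in knockout libraries 2 and 3, against 723, 1294 and 1050.2 in wild type replicates 1 to 3. The knockout values lay below all wild type values, and the wild type libraries themselves spanned a factor of 1.79, the widest among the 9 genes. NQO1 fell to 0.477 times the wild type level (log2 fold change -1.07, SE 0.229, edgeR adjusted p = 0.0123), which was the largest change of the 9 genes. The call was lost without knockout library 2 (-1.03) or 3 (-1.11) and without wild type replicate 3 (-1.05), with edgeR adjusted p of 0.121, 0.0959 and 0.0527.

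HMOX1 (ENSG00000100292; chromosome 22, 35380361 to 35394214, forward strand) encodes haem oxygenase, which cleaves haem and releases its iron, and is repressed by BACH1 beside being induced by NRF2. It had 164 and 182 normalized counts in knockout libraries, against 95.7, 129.8 and 122 in wild type libraries. The knockout libraries were above all wild type libraries, and HMOX1 rose 1.49-fold (log2 fold change 0.57, SE 0.175, edgeR adjusted p = 0.0399). It was the least abundant of the 9 genes and the one nearest the threshold. Its call was lost without knockout library 2 (0.65) or 3 (0.49), wild type replicate 1 (0.44) or wild type replicate 3 (0.61), with edgeR adjusted p between 0.0551 and 0.203, and under the block by column number (0.45, edgeR adjusted p = 0.0702).

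Glutamate-cysteine ligase joins glutamate to cysteine in the rate-limiting step of glutathione synthesis. Its catalytic subunit gene fell in the knockout and its modifier subunit gene rose. GCLC (ENSG00000001084; chromosome 6, 53497341 to 53616970, reverse strand), the catalytic subunit, had 964 and 1069.6 normalized counts in knockout libraries 2 and 3, against 1529, 1479.7 and 1532 in wild type replicates 1 to 3. All knockout values were below all wild type values, which lay within a factor of 1.04 of each other. GCLC fell to 0.672 times the wild type level (log2 fold change -0.57, SE 0.097, edgeR adjusted p = 0.00358), a call that was lost only without knockout library 2 (-0.50, edgeR adjusted p = 0.0520).

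GCLM (ENSG00000023909; chromosome 1, 93885205 to 93909456, reverse strand), the modifier subunit that makes the ligase more efficient, had 541 and 561 normalized counts in knockout libraries, against 399.9, 409 and 412 in wild type libraries. The knockout libraries were above all wild type libraries, which again lay within a factor of 1.03. GCLM rose 1.35-fold (log2 fold change 0.44, SE 0.110, edgeR adjusted p = 0.0191). The call was lost without knockout library 2 (0.46) or 3 (0.41) or wild type replicate 3 (0.45), with edgeR adjusted p of 0.0935, 0.117 and 0.0805. Of the 2 promoters printed above, that of GCLM holds the core and that of GCLC does not within 250 bases before its start. This is a difference in letters between 2 windows and was not tested against the counts.

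The thioredoxin chain passes electrons from NADPH through thioredoxin reductase to thioredoxin and on to peroxiredoxins. TXN (ENSG00000136810; chromosome 9, 110243811 to 110256640, reverse strand), the cytosolic thioredoxin, had 1605 and 1732 normalized counts in knockout libraries 2 and 3, against 1958.5, 2658 and 2533 in wild type replicates 1 to 3. The knockout values lay below all wild type values, with wild type replicate 1 the closest. TXN fell to 0.700 times the wild type level (log2 fold change -0.52, SE 0.139, edgeR adjusted p = 0.0249). The call was lost without knockout library 2 (-0.46) or 3 (-0.57) or wild type replicate 3 (-0.47), with edgeR adjusted p between 0.0892 and 0.175. Removing each library's trend with gene length moved TXN, the shortest of the 9 genes, to -0.35 (edgeR adjusted p = 0.0307). The annotation names 7 pseudogenes of TXN and 1 of PRDX1, whose reads may be split with the parent genes.

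TXNRD1 (ENSG00000198431; chromosome 12, 104215779 to 104350305, forward strand), the cytosolic thioredoxin reductase and a selenoprotein, had 5850.3 and 6536 normalized counts in knockout libraries, against 5547, 6709.5 and 6102 in wild type libraries. The groups overlapped, and the log2 fold change was 0.02 (95% interval -0.23 to 0.27, edgeR adjusted p = 0.919). PRDX1 (ENSG00000117450; chromosome 1, 45511036 to 45523047, reverse strand), a peroxiredoxin that reduces hydrogen peroxide with electrons from thioredoxin, had 9649.6 and 9264 normalized counts in knockout libraries, against 8188, 9641 and 9360.3 in wild type libraries. These groups overlapped too, with a log2 fold change of 0.06 (95% interval -0.17 to 0.29, edgeR adjusted p = 0.673). In this fit both intervals exclude a change of the size seen for TXN, in either direction. With the trend with gene length removed, PRDX1 had a log2 fold change of 0.20 (SE 0.082), beside -0.35 for TXN. PRDX1 was not called there either, and no interval was computed for that fit. Exons of PRDX1 overlap those of MMACHC on the opposite strand.

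**Figure D2:**
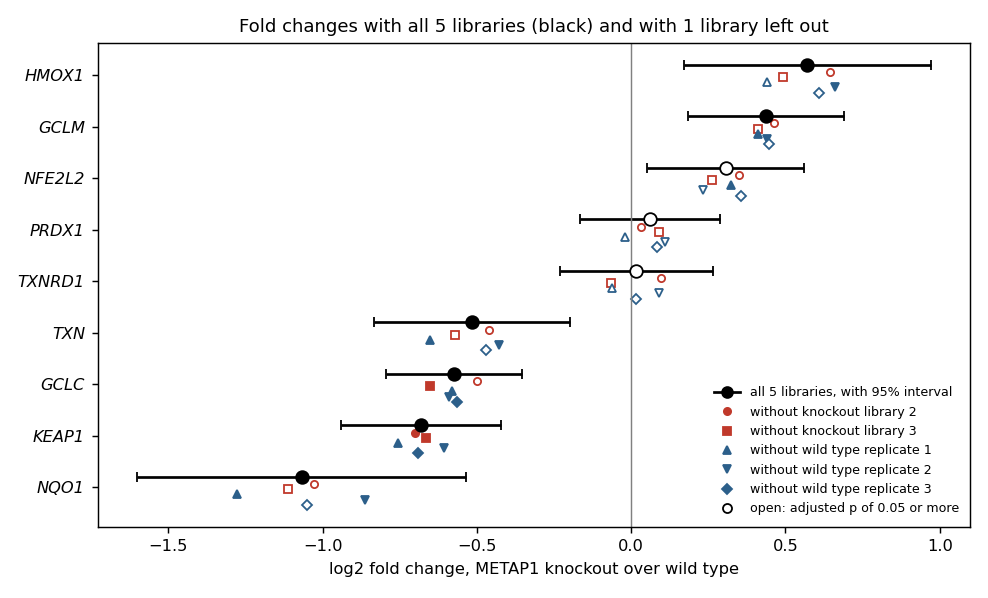
Log2 fold change of METAP1 knockout over wild type (horizontal axis) for the 9 genes, with all 5 libraries and a 95% interval (black) and with each library left out in turn (red for knockout, blue for wild type libraries); filled points have an adjusted p under 0.05. KEAP1 stays filled throughout, while HMOX1 is open in 4 of the 5 fits with a library left out.

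In the authors' deposited table, 6 of the 9 genes had an adjusted p under 0.05, where 31.6% of all its genes did. The authors' deposited table gave log2 fold changes of -0.96 for NQO1, -0.66 for KEAP1, -0.56 for GCLC, -0.49 for TXN, 0.42 for GCLM and 0.51 for HMOX1. For NFE2L2 the authors' deposited table gave 0.29 with an adjusted p of 0.0739.

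Levels of different genes were compared per length, as RPKM computed on the table's own read totals. PRDX1 was the most abundant, at 452 ± 9.14 in knockout cells (SD, n = 2) and 429 ± 38.2 in wild type cells (SD, n = 3). TXN followed with 105 ± 6.57 in knockout cells and 148 ± 23.8 in wild type cells, and TXNRD1 with 101 ± 8.75 in knockout cells and 98.3 ± 9.99 in wild type cells (SD, n = 2 and 3). TXN and TXNRD1 overlapped in the knockout libraries, whereas every wild type library had more TXN than any had TXNRD1. The thioredoxin chain was thus expressed above the other genes in both genotypes.

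KEAP1 had a level per length of 15.9 ± 0.144 in knockout cells and 25.3 ± 2.57 in wild type cells (SD, n = 2 and 3). NFE2L2 had 15.7 ± 0.812 in knockout cells and 12.6 ± 1.05 in wild type cells (SD, n = 2 and 3), and it ranked 5 of 9 in the knockout and 7 of 9 in wild type. GCLC had 14.1 ± 1.16 in knockout cells and 20.8 ± 0.234 in wild type cells, and NQO1 had 12.3 ± 0.612 in knockout cells and 25.4 ± 7.28 in wild type cells (SD, n = 2 and 3). NQO1 ranked 7 of 9 in the knockout, against 4 of 9 in wild type. Neighbours that overlapped between libraries were KEAP1 and NFE2L2 in the knockout, and NQO1 with KEAP1 and with GCLC in wild type. At the low end, GCLM had 7.37 ± 0.252 in knockout cells and 5.38 ± 0.0944 in wild type cells, and HMOX1 had 5.47 ± 0.458 in knockout cells and 3.63 ± 0.576 in wild type cells (SD, n = 2 and 3).

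**Figure D3:**
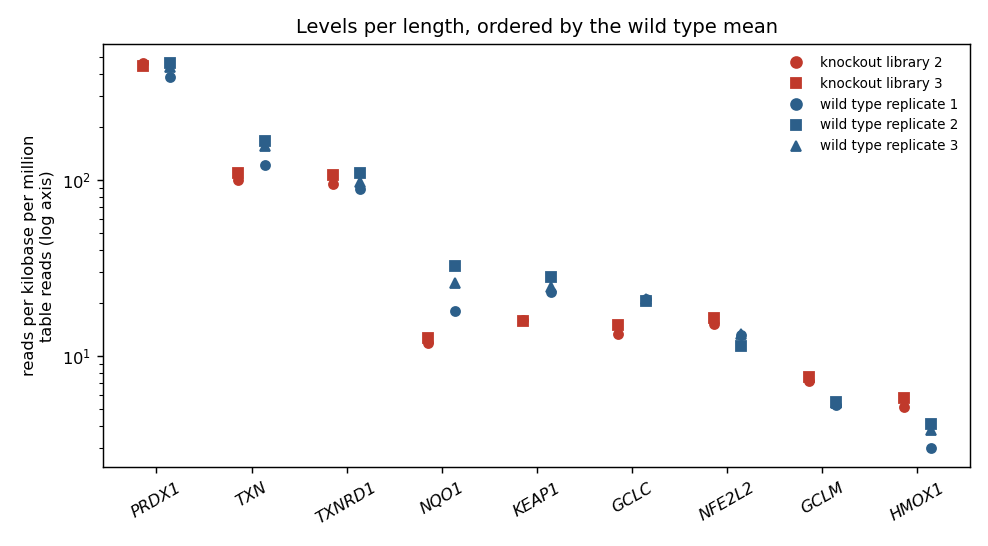
Levels per length (vertical log axis, RPKM on the table's own totals) of the 9 genes in each knockout (red) and wild type (blue) library, ordered by the wild type mean. PRDX1, TXN and TXNRD1 stand above the other 6 genes in all libraries.

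Ratios within a library compare partners without the scaling between libraries. The level of KEAP1 per NFE2L2 was 1.06 and 0.971 in knockout libraries 2 and 3, against 1.77, 2.47 and 1.86 in wild type replicates 1 to 3. The ratio of KEAP1 to NFE2L2 was near 1 in the knockout libraries and above 1 in every wild type library. Its absolute size depends on the gene lengths given (3445 bases for KEAP1 and 5435 for NFE2L2), which need not be those of the expressed transcripts. Its shift between genotypes does not depend on them. GCLM per GCLC was 0.540 and 0.505 in knockout libraries, against 0.252, 0.266 and 0.259 in wild type libraries, a log2 difference of 1.01. This ratio was the most even of the 3 within wild type cells, with a mean of 0.522 ± 0.0252 in knockout cells and 0.259 ± 0.00710 in wild type cells (SD, n = 2 and 3). TXNRD1 per TXN was 0.940 and 0.973 in knockout libraries, against 0.730, 0.651 and 0.621 in wild type libraries. Such ratios keep any difference between libraries in the trend with gene length, and TXN has 1142 bases beside 4429 for TXNRD1. With that trend removed, the log2 fold change was -0.35 for TXN (-0.52 before) and -0.01 for TXNRD1 (0.02 before). In all 3 ratios the groups did not overlap. Each ratio holds at least 1 gene whose own groups did not overlap, as was so for 59.3% of all tested genes. This separation is therefore not independent of that of the single genes. The ratios are a description of the same counts and were given no test of their own.

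**Figure D4:**
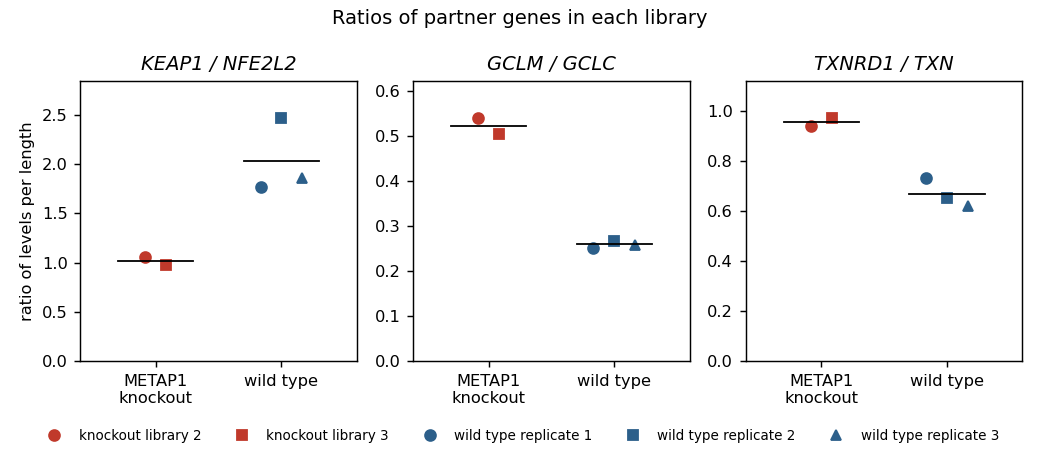
Ratio of levels per length (vertical axes, from 0) of KEAP1 over NFE2L2, GCLM over GCLC and TXNRD1 over TXN in each METAP1 knockout library (red, left) and wild type library (blue, right), with the group mean as a line. GCLM over GCLC averages 0.522 in the knockout and 0.259 in wild type.

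Other regulators and partners of NRF2 had 4 of 19 tested members higher and 0 lower in edgeR, with a median log2 fold change of 0.21; at an unadjusted p under 0.05, 1 was lower, and DESeq2 called 0 lower. The share called was 21.1%, below the 29.7% of all tested genes. SQSTM1, the autophagy receptor p62 that binds KEAP1, had 2360.4 and 2270.4 normalized counts in knockout libraries, against 1612, 1873 and 1659 in wild type libraries (log2 fold change 0.43, SE 0.100, edgeR adjusted p = 0.0138). MAFK, a small MAF partner, rose by 0.55 (SE 0.161), SYVN1, a ubiquitin ligase reported to act on NRF2, by 0.88 (SE 0.238), and BTRC, an adaptor of another ligase for NRF2, by 0.40 (SE 0.130) on the log2 scale. All 4 calls were lost without knockout library 2 or 3 or wild type replicate 3. CUL3, the scaffold that KEAP1 binds, had a log2 fold change of 0.19 (SE 0.093) and BACH1, the repressor of HMOX1, 0.27 (SE 0.098); neither was called. Both were named after their values were seen. With a library left out, 0 to 8 of this list were called higher and 0 to 2 lower, while 11.1 to 43.2% of all genes were called in those fits.

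Other known NRF2 target genes had 6 of 26 tested members higher and 8 lower, with a median log2 fold change of -0.06 and 53.8% called (29.7% of all tested genes). Both ferritin subunit genes, for iron storage, rose. FTL, the light chain, had 5867 and 6519 normalized counts in knockout libraries, against 2574, 2872 and 2792 in wild type libraries (log2 fold change 1.17, SE 0.096, edgeR adjusted p = 0.000127). FTH1, the heavy chain, rose by 0.72 (SE 0.118), and ABCC4, an exporter of organic anions, by 0.83 (SE 0.095) on the log2 scale. SLC7A11, the cystine importer that feeds glutathione synthesis, had 2842 and 4421 normalized counts in knockout libraries, against 1924, 1621 and 1883 in wild type libraries. It rose by 1.01 (SE 0.179) on the log2 scale, with 1.29 without knockout library 2 and 0.65 without knockout library 3. These 4 kept their calls whichever library was left out. Genes that fell included PIR (-0.67, SE 0.128), which encodes pirin, CBR3 (-0.82, SE 0.193), a carbonyl reductase, MGST1 (-0.65, SE 0.150), a microsomal glutathione transferase, and TALDO1 (-0.49, SE 0.118), transaldolase of the pentose phosphate pathway. All 4 lost their calls without knockout library 2, and CBR3, MGST1 and TALDO1 also without knockout library 3 or wild type replicate 3. With a library left out, 4 to 6 of this list were called higher and 0 to 9 lower.

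Among enzymes that make or use glutathione, 1 of 30 tested members rose and 10 fell, with a median log2 fold change of -0.17 and 36.7% called (29.7% of all tested genes). With the trend with gene length removed, 3 were called higher and 10 lower. CHAC2, a glutathione-degrading cyclotransferase, had 127 and 124 normalized counts in knockout libraries, against 306, 390.4 and 367 in wild type libraries (log2 fold change -1.50, SE 0.160, edgeR adjusted p = 0.000445). The transferase genes GSTA4 (-1.08, SE 0.108) and MGST2 (-0.97, SE 0.159) and GPX8 (-0.96, SE 0.125), a peroxidase of the endoplasmic reticulum, fell as well. These 4 kept their calls whichever library was left out. GSTP1, an abundant transferase, rose by 0.30 (SE 0.092) on the log2 scale, a call that was lost without either knockout library or wild type replicate 3. With a library left out, 0 to 3 of this list were called higher and 4 to 15 lower.

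The list of thioredoxin family enzymes also holds TXNIP and the sestrin genes, which are not thioredoxins. It had 2 of 20 tested members higher and 7 lower (median log2 fold change -0.24), or 45.0% called, beside 29.7% of all tested genes. Beside PRDX1, the peroxiredoxins PRDX2 (-0.37, SE 0.089) and PRDX4 (-0.47, SE 0.110) fell and PRDX6 (0.48, SE 0.113), which takes electrons from glutathione instead of thioredoxin, rose. The mitochondrial thioredoxin gene TXN2 (-0.61, SE 0.127) and MSRB2 (-0.68, SE 0.167), a methionine sulfoxide reductase, fell. These 5 calls were lost without knockout library 2 or 3, and those of PRDX2 and PRDX4 also without wild type replicate 3. Of the other peroxiredoxins, PRDX3 was also called lower (-0.46, SE 0.131) and PRDX5 was not called (-0.08, SE 0.128). Both were named after their values were seen. TXNIP, which binds and inhibits thioredoxin, had 4701 and 2222 normalized counts in knockout libraries, against 1011.5, 1169 and 1063 in wild type libraries. It rose by 1.68 (SE 0.267) on the log2 scale, with 1.04 without knockout library 2 and 2.12 without knockout library 3, and lost its call without wild type replicate 2 (1.74). With a library left out, 1 to 2 of this list were called higher and 0 to 8 lower.

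Superoxide and peroxide enzymes had 2 of 5 tested members lower and 0 higher in edgeR (0 higher also at an unadjusted p under 0.05 and in DESeq2, but 1 with the length trend removed): SOD1, the cytosolic superoxide dismutase (-0.52, SE 0.114), and CAT, catalase (-0.59, SE 0.159). Enzymes of NADPH supply had 2 of 12 higher and 6 lower (median log2 fold change -0.19), with 1 higher under median-of-ratios size factors or with the length trend removed. The share called was 40.0% for the peroxide list, 66.7% for the NADPH list and 27.3% for the haem and iron list described next, beside 29.7% of all tested genes. The cytosolic malic enzyme gene ME1 (0.49, SE 0.112) rose and the mitochondrial ME2 (-0.45, SE 0.101) fell, and the transhydrogenase gene NNT (0.26, SE 0.085) rose too. NADK, the NAD kinase (-0.43, SE 0.124), and PGD, of the pentose phosphate pathway (-0.34, SE 0.100), fell. Haem and iron genes had 2 of 11 higher, the ferritin genes named above, and 1 lower, HMOX2 (-0.50, SE 0.129), the constitutive haem oxygenase. Apart from the ferritin genes, none of the calls named in this paragraph held without knockout library 2 or without knockout library 3.

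**Figure D5:**
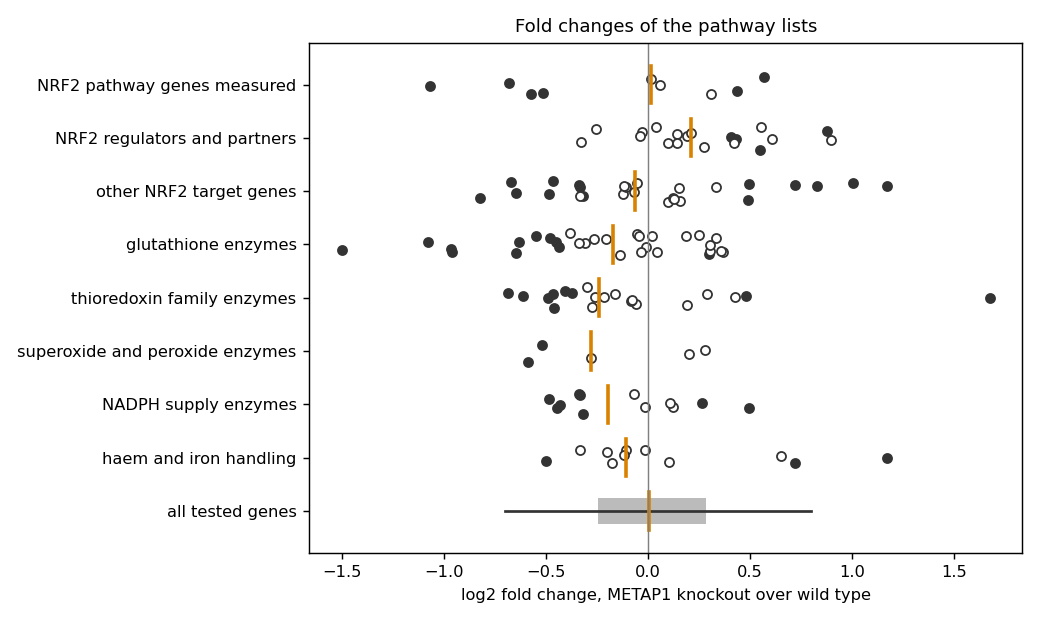
Log2 fold change of METAP1 knockout over wild type (horizontal axis) of each tested gene in the pathway lists (filled, adjusted p under 0.05; open, not called), with the list median as an orange bar. The lowest line gives all tested genes, with the 5th to 95th percentile (-0.70 to 0.80) as a line and the middle 50% as a box; list medians lie between -0.28 and 0.21.

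Some genes that serve as cell type markers also differed between the genotypes, although all libraries came from the HAP1 line. In bulk RNA a change in the number of cells that express a gene and in RNA per cell cannot be told apart. The share called was 40% of the epithelial and 42.9% of the mesenchymal markers, beside 29.7% of all tested genes (14.9% higher and 14.8% lower). These lists are short, and whether their shares differ from that of all genes was not tested. The shares of all genes called with each library left out are given above. Of 5 tested epithelial markers 2 were higher and 0 lower in edgeR (1 lower at an unadjusted p under 0.05, 0 in DESeq2, 1 with the length trend removed), and their summed level per length was 46.7 to 50.2 in knockout libraries, against 25.2 to 27.0 in wild type libraries, with KRT8 at a log2 fold change of 2.72 and KRT18 at 0.41. KRT8 alone had a mean level per length of 18.8 in knockout cells and 2.80 in wild type cells. The other epithelial markers were not called, with log2 fold changes of -0.52 for ESRP1 (edgeR adjusted p = 0.0575, both knockout libraries below all wild type libraries), 0.39 for OCLN and 0.14 for EPCAM. With a library left out, 1 to 3 epithelial markers were called higher, and KRT18 lost its call without knockout library 2 or 3 or wild type replicate 3. Of 7 tested mesenchymal markers 3 were higher and 0 lower in edgeR (0 lower also at an unadjusted p under 0.05 and in DESeq2), S100A4 (2.44), CDH2 (0.78) and FN1 (0.78). The other mesenchymal markers were not called, with log2 fold changes of 0.48 for ZEB2, 0.44 for TWIST1, 0.08 for VIM and -0.16 for ZEB1. The summed level of the 7 was 190.0 to 193 in knockout libraries, against 131 to 148 in wild type libraries. VIM alone had a mean level per length of 91.8 in knockout cells and 85.7 in wild type cells. Of the 2 measured haematopoietic markers, KIT was higher (0.56, a call lost without knockout library 2 or 3 or wild type replicate 3) and GATA2 was not called (-0.34), and their summed level was 10.1 to 11.9 in knockout libraries, against 9.83 to 11.6 in wild type libraries. The part of these differences in the values of the NRF2 pathway genes was not tested.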

How the data were processed

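RNA of 2 METAP1 knockout and 3 wild type HAP1 libraries was ribosomal RNA-depleted and sequenced from stranded kits as single-end reads, per the labels' protocols. The submitters' processing notes name STAR 2.4.0i, HTSeq, DESeq2, GRCh37 and hg19 without roles. The authors deposited 1 table with raw read counts per gene, RPKM values, and log2 fold changes with adjusted p-values of their own comparison, per the file headers. It also gives a gene length for each row. Its smallest wild type RPKM was 1.001, so genes near zero in wild type cells are not part of it. Any gene expressed only in the knockout would be missing too, and a floor in knockout cells was not examined. Knockout columns are numbered 2 and 3, while titles number those samples otherwise, so they were used as unnumbered replicates of their group; their 2 RPKM columns were not used for this reason.

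Counts were fitted with edgeR 4.0.16 in R 4.3.3: filterByExpr (6 genes removed, 10620 tested), TMM, robust dispersions and a 2-sided quasi-likelihood F-test over 5 libraries without covariates (3 residual degrees of freedom, common biological coefficient of variation 11.7%). Fold changes are knockout over wild type. Levels per length divide counts by length and the table's own totals. Named list genes were, per list, up to 4 called genes in each direction with the smallest adjusted p. Where a list had fewer than 2 called genes, its 2 most counted genes were named. Exceptions are stated. The genes and lists were chosen with earlier results of these data known. Gene positions are from GENCODE 29 (GRCh38), not the authors' build; promoter sequences are from RefSeq (GRCh38.p14). The fit was tested on simulated counts. Alternatives were DESeq2 1.42.0, limma-voom (limma 3.58.1), other scalings and filters, removal of each library's length trend (lowess, span 0.3), a block by column number, and each library left out. Partner ratios of SRXN1 were not computed.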

Additional observations from a re-analysis of the deposited data

How the results depend on the processing

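Of 117 values for the 9 NRF2 pathway genes under all alternatives, 94 kept their direction and their side of the threshold, 15 were no longer called, 2 were newly called and 6 changed sign, all in TXNRD1 and PRDX1, whose groups overlap. TXNRD1 turned to a log2 fold change of -0.0127 with the length trend removed and -0.0493 with the replicate block, and lay between -0.0649 and 0.0950 with 1 library left out. PRDX1 turned to -0.00685 with the block and lay between -0.0213 and 0.108 with 1 library left out. The count of called genes among the 9 was 6 and ranged from 1 to 6 with 1 library left out, that of the 110 other pathway genes was 44 and ranged from 9 to 59, and that of all genes was 3150 and ranged from 1179 to 4591. Where a knockout library was left out, the other is assumed to vary like the wild type libraries.

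A replicate block by column number gave 6 called genes of the 9, with HMOX1 lost and NFE2L2 gained, 57 of the other pathway genes and 4356 genes in all. No knockout library shares the number of wild type replicate 1. The block therefore in effect sets that replicate aside and is not separate from the fit that leaves it out. Deviations of same-numbered libraries correlated at 0.0318 (number 2) and -0.00216 (number 3). With 2 knockout libraries these deviations mirror each other, so the correlations cannot tell whether same-numbered libraries were handled together. Wild type levels by the deposited RPKM were 11.4 for NFE2L2, 388 for PRDX1, 18.8 for GCLC and 4.87 for GCLM, since the table held 89.1 to 91.2% of the totals behind those values. With 2 knockout libraries and 3 residual degrees of freedom, 5 of the 6 calls were lost without knockout library 2, and HMOX1, at 89 to 172 reads a library, has the fewest reads of the 9 genes.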

Other observations

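Several listed genes differed more between libraries of 1 genotype than most of the 9 NRF2 pathway genes did, and they were picked after their values were seen. The coactivator genes of NRF2 were uneven within wild type cells. EP300 had 2956 and 2892 normalized counts in knockout libraries 2 and 3, against 2971, 1151 and 1856 in wild type replicates 1 to 3, and CREBBP had 2457 and 2453 in knockout libraries, against 2421, 1006 and 1408 in wild type libraries. In both genes wild type replicate 1 lay close to the knockout libraries, and neither was called, with edgeR adjusted p of 0.228 for EP300 and 0.170 for CREBBP. The sestrin genes, which respond to stress, were uneven in both genotypes: SESN1 had 388 and 943 normalized counts in knockout libraries, against 808, 386 and 446 in wild type libraries, and SESN2 had 408 and 512 in knockout libraries, against 816, 369 and 364 in wild type libraries.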
